A study of Homo sapiens with 10 samples.

Results

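In transformed MCF10A-ER-Src cells, 1075 of the 73822 NFKB1 target sites on chromosomes 1 to 22 and X had a STAT3 peak summit within 300 bp of the NFKB1 summit and no summit of FOS, JUN or JUNB within 300 bp. These sites are 1.46% of the NFKB1 sites (Wilson 95% interval 1.37 to 1.55%). The count rests most on the FOS and JUN lists. It was 2429 with FOS left out, 2011 with JUN left out and 1241 with JUNB left out. The sites were chosen by the summit positions of NFKB1, STAT3 and the 3 AP-1 subunits in transformed cells, so their occupancy in those cells is a description, while the lists of non-transformed cells were not used in the choice. STAT3 rarely came without AP-1: 44783 NFKB1 sites (60.7%) had both STAT3 and AP-1, 18744 (25.4%) had AP-1 without STAT3, and 9220 (12.5%) had neither. Intervals on shares count sites only and carry no error between cultures, because each protein had 1 library in each state.

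MCF10A is a non-tumorigenic human breast epithelial cell line, and its ER-Src derivative carries the v-Src kinase fused to the ligand-binding part of the oestrogen receptor, so that tamoxifen switches the kinase on. The 10 ChIP-seq libraries cover NFKB1, STAT3 and the AP-1 subunits FOS, JUN and JUNB in 2 states, cells given ethanol (non-transformed) and cells given 1 µM 4-hydroxy-tamoxifen for 12 h (transformed). All libraries come from the same ER-Src line. Per the file headers, ethanol libraries are named 36 h while tamoxifen libraries are named 12 h, so treatment and time cannot be told apart in any comparison between the states. The libraries hold 4837474 to 22082403 filtered reads each, with 4837474 for NFKB1 in non-transformed cells against 9674390 in transformed cells, and 10929003 against 8967267 for STAT3.

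NFKB1 is a DNA-binding subunit of NF-κB, which is held in the cytoplasm by inhibitor proteins and enters the nucleus upon inflammatory signals. STAT3 is activated by tyrosine phosphorylation downstream of cytokine receptors and of Src itself. FOS, JUN and JUNB are subunits of AP-1, a dimeric factor that binds many enhancers of epithelial cells. The sites described here are those where the inflammatory pair was found by summit without an AP-1 subunit beside it.

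Earlier listing of the pair lay between that of the other classes. In non-transformed cells, 685 of the 1075 sites (63.7%, 60.8 to 66.5%) had neither an NFKB1 nor a STAT3 summit within 300 bp, against 57.5% of all NFKB1 sites. The share was 41.7% at sites with STAT3 and AP-1, 78.3% at sites with AP-1 only and 91.3% at sites with neither. A site without a listed summit is one below the threshold of the peak caller, which does not show that it was unbound. Both proteins were already listed at 46 sites (4.28%), against 10.3% of all NFKB1 sites. STAT3 was found at 291 sites (27.1%, 24.5 to 29.8%), where the share over all NFKB1 sites was 36.6%. That background mixes sites with and without STAT3 in transformed cells. The share was 53.2% at sites with STAT3 and AP-1, 14.2% at sites with AP-1 only and 2.53% at sites with neither. NFKB1 was found at 145 sites (13.5%, 11.6 to 15.7%), against 16.2% of all NFKB1 sites. For both proteins the share lay below that background.

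AP-1 was found earlier at 305 of these sites (28.4%, 25.8 to 31.1%), although it was absent by summit in transformed cells. The share over all NFKB1 sites was 76.0%, and that gap partly follows from the choice of sites without AP-1. The class with neither STAT3 nor AP-1 lacks AP-1 by the same rule, and there the share was 10.1%, which is 18.2 percentage points lower (Newcombe 95% interval of the difference 15.6 to 21.1 points). JUN was the subunit found most often, at 188 sites (17.5%), against 58.9% of all NFKB1 sites and 5.80% of those with neither partner. FOS was found at 133 sites (12.4%), against 68.3% and 4.05%. JUNB was found at 83 sites (7.72%), against 49.4% and 2.0%. Any of the 5 proteins was found at 543 sites (50.5%), where all NFKB1 sites gave 79.1% and the sites with neither partner gave 16.8%.

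**Figure D1:**
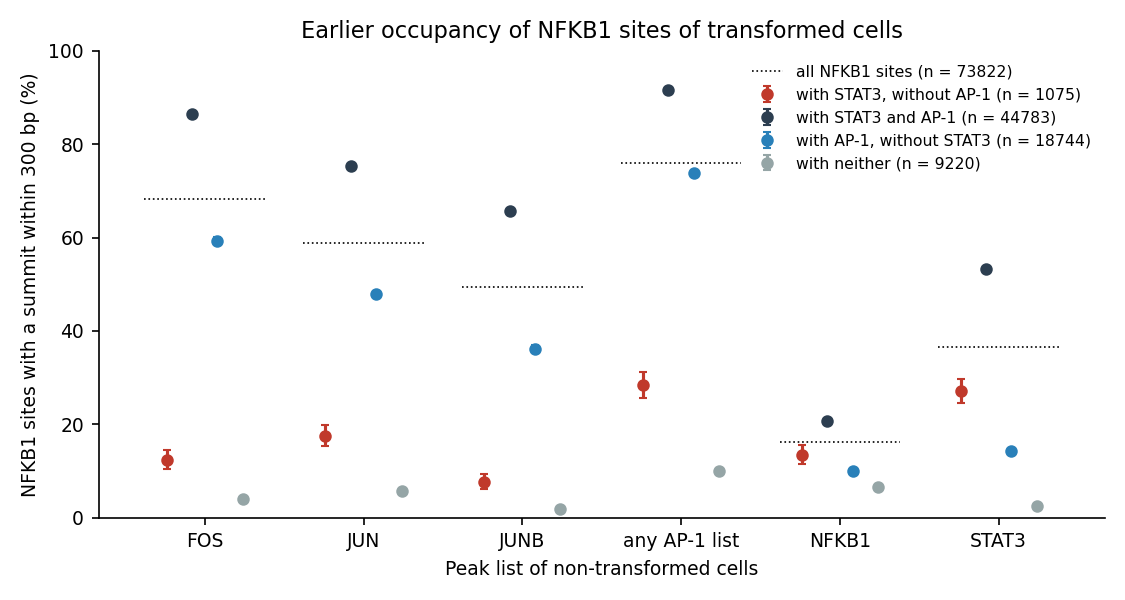
Share (%) of NFKB1 sites of transformed cells with a summit within 300 bp in each peak list of non-transformed cells, by the partners the sites had in transformed cells. Points are shares, bars are Wilson 95% intervals and dotted lines are all 73822 NFKB1 sites; the 1075 sites with STAT3 and without AP-1 lie between the sites with neither partner and those with both in every list.

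The AP-1 found earlier was mostly 1 subunit. Of the 305 sites, 118 (38.7%) had JUN without FOS or JUNB, 68 (22.3%) had FOS without the others and 37 (12.1%) had JUNB without the others. All 3 subunits were listed at 17 sites (5.57%, 3.51 to 8.74%). At the sites with STAT3 and AP-1 the 3 subunits came together at 62.4% of those with earlier AP-1, and JUN without the others made up 3.80%. The sites with neither partner resembled the sites described here more, with JUN alone at 44.6% and all 3 subunits at 1.50%. JUN without FOS was found at 135 sites and FOS without JUN at 80. The sites with neither partner had the same order, with 446 and 284. The order was the other way at the sites with STAT3 and AP-1, with 1972 and 6947 sites. It was also the other way at those with AP-1 only, with 2395 and 4537. The JUN list of non-transformed cells is the shorter of the pair, with 81444 peaks against 119754 for FOS. In transformed cells, whose lists removed sites by the rule, FOS is also the longer, with 164605 peaks against 127335 for JUN. A longer FOS list can remove more sites with FOS, and its part in this order was not tested.

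The earlier AP-1 peaks were also low. Fold enrichment is the pileup of extended reads over the background expected by the peak caller. Its median at the FOS peaks near these sites was 5.35, against 8.75 over the whole FOS list, which puts it at percentile 18.7 of that list. The JUN peaks had a median of 5.12 (percentile 26.8) and the JUNB peaks 5.64 (percentile 30.7). The earlier NFKB1 and STAT3 peaks were average for their lists, with medians of 7.25 (percentile 52.8) and 6.84 (percentile 51.9). At the sites with neither partner the earlier AP-1 peaks were about as low, with medians of 5.23 for FOS, 5.12 for JUN and 4.94 for JUNB.

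By combination, the most common earlier state was no summit of any of the 5 proteins, at 532 sites (49.5%). That share was 20.9% over all NFKB1 sites, 6.36% at sites with STAT3 and AP-1, and 83.2% at those with neither partner. The combinations below were counted at the 1075 sites only. No share over all NFKB1 sites stands beside them, so none is called particular to these sites. STAT3 as the single protein followed with 148 sites (13.8%), then JUN with 68, NFKB1 with 61, FOS with 37 and JUNB with 16. With combinations of AP-1 subunits added to the single ones, 153 sites (14.2%) had AP-1 listed but neither NFKB1 nor STAT3. All 5 proteins were listed earlier at 1 site. The combination that defines the sites, NFKB1 and STAT3 without AP-1, was already present at 29 sites (2.70%, 1.88 to 3.85%).

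In transformed cells the sites were of low to middling height. Their NFKB1 fold enrichment ran from 3.16 to 41.9 with a median of 5.60 (quartiles 4.90 and 8.16). The median was 7.69 at sites with STAT3 and AP-1, 5.59 at sites with AP-1 but not STAT3, and 5.30 at sites with neither. STAT3 fold enrichment at the same 1075 sites ran from 3.22 to 78.9 with a median of 6.45 (quartiles 5.34 and 10.0), below the median of 10.8 at the sites with STAT3 and AP-1. These are levels in the lists that chose the sites and are given without a test. Sites of this kind made up 2.01% of the NFKB1 sites with a pileup of 4 to 6 reads, 1.63% at 7 to 8, 1.30% at 9 to 13 and 0.990% at 14 to 144 reads.

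Whether NFKB1 was listed earlier went with the height of its peak. Among sites with 4 to 6 reads in transformed cells, 7 of 322 (2.17%) had an NFKB1 summit in non-transformed cells. The share was 4.01% at 7 to 8 reads, 14.9% at 9 to 13 reads and 46.2% (39.2 to 53.4%) at 14 or more reads. In that top class it was 45.6% at sites with STAT3 and AP-1, 44.2% at those with AP-1 only and 34.4% at those with neither. When the other classes were weighted to the same spread of NFKB1 pileup, the difference from the sites with STAT3 and AP-1 went from 7.28 points lower to 0.574 points higher. The NFKB1 library of non-transformed cells is the shallowest of the 10, and its part in these shares was not tested.

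STAT3 behaved likewise along its own height and not along that of NFKB1. An earlier STAT3 summit was found at 16.8% of the sites with a STAT3 pileup of 4 to 6 reads, 13.8% at 7 to 8, 20.3% at 9 to 13 and 56.1% (50.2 to 61.8%) at 14 to 116 reads. Over the 4 classes of NFKB1 pileup it stayed between 25% and 28.0%. Earlier AP-1 showed no order with STAT3 pileup, at 34.1%, 22.5%, 29.0% and 30%. Among the subunits, JUNB was highest in the top class, with 12.9% (9.43 to 17.3%) against 4.18 to 7.61% in the lower ones. JUN was highest in the lowest class, with 26.0% (20.5 to 32.3%) against 12.2 to 18.1% in the others. FOS ran from 10.9 to 14.9%. The highest STAT3 peaks also lay nearest to AP-1, with a median distance of 599.5 bp against 950 to 1186 bp in the other classes.

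**Figure D2:**
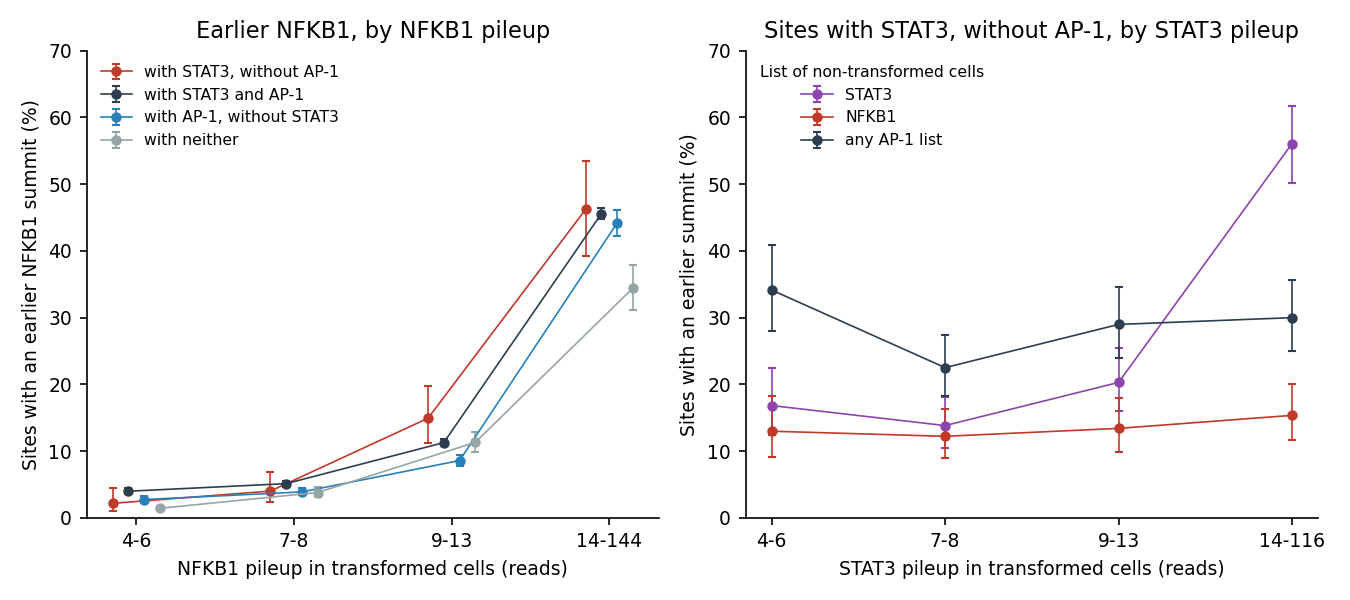
Left, share (%) of NFKB1 sites with an NFKB1 summit in non-transformed cells by NFKB1 pileup (reads) in transformed cells, for the 4 classes of site; right, share (%) of the sites with STAT3 and without AP-1 that had STAT3, NFKB1 or AP-1 earlier, by STAT3 pileup (reads). Bars are Wilson 95% intervals; earlier NFKB1 goes from 2.17% to 46.2% at the sites with STAT3 and without AP-1, and earlier STAT3 reaches 56.1% in the top class of STAT3 pileup.

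At sites listed in both states, STAT3 pileup was higher after transformation. Per 1000000 filtered reads its median at the 291 sites was 1.67 in transformed and 1.01 in non-transformed cells, and the median ratio was 1.44 (order-statistic 95% interval 1.35 to 1.56), with 227 sites (78.0%) higher. The ratio by fold enrichment was 1.35. At the 23831 sites with STAT3 and AP-1 listed for STAT3 in both states the ratio by pileup was 1.80 and 85.6% were higher, so a higher STAT3 pileup was not particular to the sites without AP-1. For the 145 NFKB1 sites the direction depended on the scale, with a median ratio of 0.818 (0.778 to 0.893) by pileup per 1000000 reads and 1.30 (1.23 to 1.45) by fold enrichment. No direction can therefore be given for NFKB1. The peak caller extended NFKB1 reads to 135 bp in non-transformed and 120 bp in transformed cells and STAT3 reads to 150 and 119 bp, which also enters the pileup.

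NFKB1 and STAT3 levels were only loosely tied across these sites. The log2 ratio of NFKB1 to STAT3 fold enrichment had a median of -0.15 (quartiles -0.69 and 0.31), and the Pearson correlation of the log2 levels was 0.15 across 1075 sites (Spearman 0.12) against 0.36 across the 44783 sites with AP-1. These correlations run across sites of 1 pair of libraries, are cut at the peak threshold and are given as a description. At 86 sites NFKB1 was at least 2 times STAT3, and at 189 sites STAT3 was at least 2 times NFKB1.

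The ends of that balance differed in earlier occupancy, and they also differed in height. Median NFKB1 fold enrichment in transformed cells was 15.2 at the sites led by NFKB1 and 5.07 at those led by STAT3. Median STAT3 fold enrichment was 5.66 and 15.8 in the same order. Earlier listing of each protein went with its own height, and balance apart from height was not tested. At the 86 sites led by NFKB1, 47 (54.7%, 44.2 to 64.7%) had NFKB1 in non-transformed cells and 11 (12.8%, 7.29 to 21.5%) had STAT3. Of the 189 sites led by STAT3, 117 (61.9%, 54.8 to 68.5%) had STAT3 earlier and 7 (3.70%, 1.81 to 7.45%) had NFKB1. The 800 sites within 2 times lay lower for each leader, with 11.4% for NFKB1 and 20.4% for STAT3. Earlier AP-1 was found at 27.9% (19.5 to 38.2%), 27.9% (24.9 to 31.1%) and 30.7% (24.6 to 37.6%) of the sites led by NFKB1, balanced and led by STAT3. The median distances to AP-1 were 1602, 1002 and 555 bp in the same order.

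**Figure D3:**
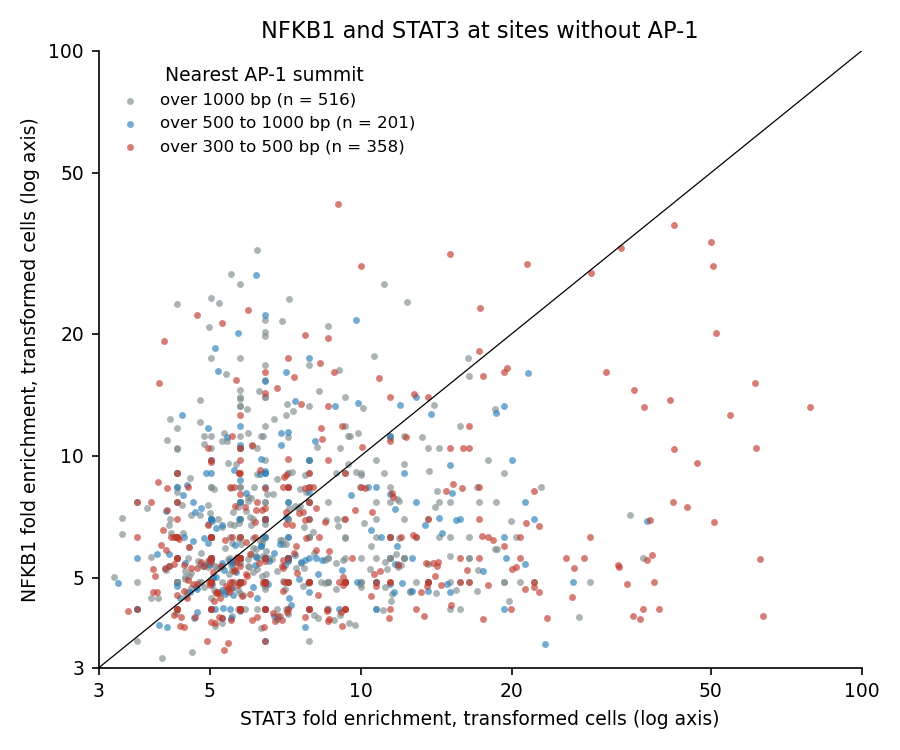
NFKB1 against STAT3 fold enrichment in transformed cells at the 1075 sites, both on log axes, with a line of equal values and colours for the distance to the nearest AP-1 summit. The sites above 50 for STAT3 are all within 500 bp of an AP-1 summit, while high NFKB1 with low STAT3 occurs also over 1000 bp away.

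Absence of AP-1 by summit did not always mean a distant AP-1 peak. The nearest AP-1 summit of transformed cells lay a median of 924 bp away (quartiles 416 and 3592 bp, at most 96034 bp), against 2910 bp for the NFKB1 sites with neither partner. It lay between 300 and 500 bp at 358 sites (33.3%), and at 193 of them the AP-1 peak interval overlapped the NFKB1 interval. Over all 1075 sites the intervals overlapped at 204 (19.0%). At the other end, 516 sites (48%) had no AP-1 summit within 1000 bp and 203 (18.9%) none within 5000 bp. The nearest subunit was FOS at 425 sites, JUN at 397 and JUNB at 253.

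The limit of 300 bp crosses a dense part of the distances. In the 10 bp just outside it 30 sites entered, with a median NFKB1 fold enrichment of 5.45, and in the 10 bp just inside it 48 sites with STAT3 were left out, with a median of 6.06. On the STAT3 side 22 sites entered by the last 10 bp (5.22) and 24 missed it by up to 10 bp (4.99).

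Earlier occupancy changed along this distance. Within 500 bp, 44.4% of the sites had AP-1 in non-transformed cells, with JUN at 25.1%, FOS at 19.3% and JUNB at 18.7%. Over 1000 bp away the shares were 20.2% for any subunit, 14.0% for JUN, 8.53% for FOS and 1.94% for JUNB. At the NFKB1 sites with neither partner and over 1000 bp from AP-1 the corresponding values were 7.69%, 4.64%, 3.11% and 1.10%. JUN thus exceeded them by 9.32 points (6.54 to 12.6) and FOS by 5.42 points (3.26 to 8.17), while the interval for JUNB included 0 (0.842 points, -0.083 to 2.45).

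STAT3 was found earlier at 112 of the 516 distant sites (21.7%, 18.4 to 25.5%) and at 1.61% of the distant sites with neither partner. Because STAT3 in transformed cells chose the sites, a higher earlier STAT3 share is partly built in. NFKB1, which marks both classes alike, was found earlier at 69 distant sites (13.4%, 10.7 to 16.6%) against 6.76%, a difference of 6.62 points (3.88 to 9.88). Over all distances, weighting by NFKB1 pileup brought the difference from 6.86 to 2.57 points, and the weighting was not run for the distant sites.

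**Figure D4:**
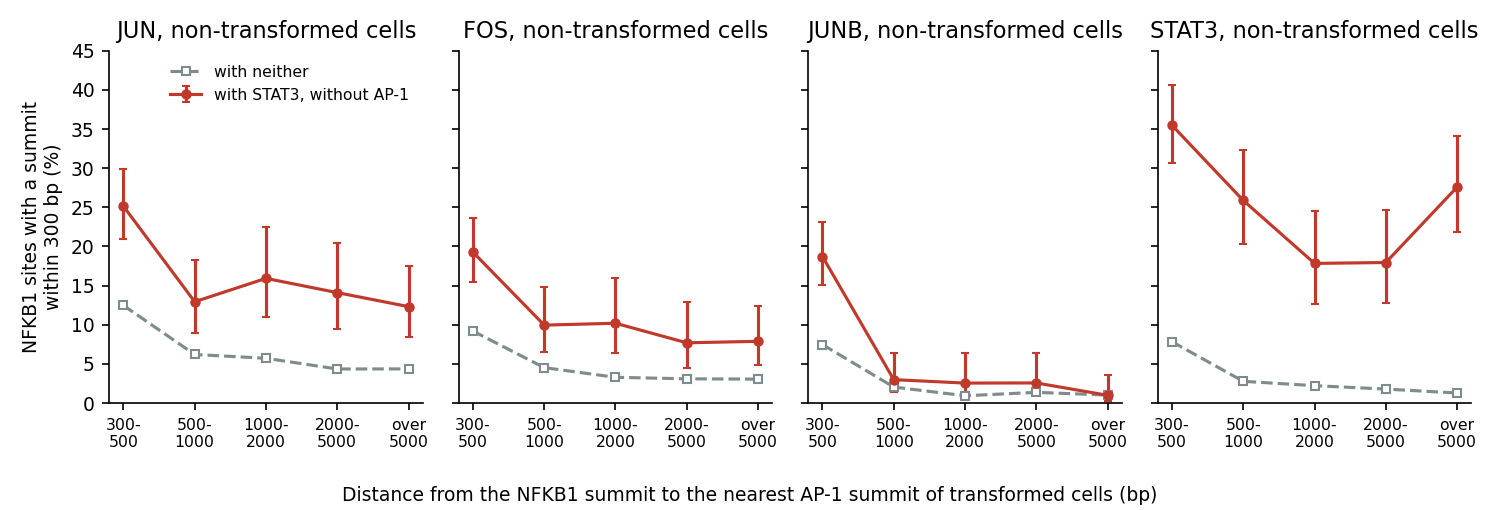
Share (%) of NFKB1 sites with JUN, FOS, JUNB or STAT3 in non-transformed cells by the distance (bp) from the NFKB1 summit to the nearest AP-1 summit of transformed cells, for the sites with STAT3 and without AP-1 (bars, Wilson 95% intervals) and those with neither partner (squares). JUNB drops from 18.7% in the nearest class to 0.985% over 5000 bp away, and STAT3 stays between 17.8% and 35.5% throughout. At the sites with neither partner JUNB drops from 7.46% to 1.02% and STAT3 from 7.83% to 1.28%.

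Among the 1075 sites, the NFKB1 and STAT3 summits lay closer together the farther AP-1 was. Their median distance was 43 bp over all 1075 sites (quartiles 19 and 97.5 bp), against 30 bp at the sites with STAT3 and AP-1, so the far sites were close to those with AP-1. By distance to AP-1 the median was 60.5 bp at 300 to 500 bp, 48 bp at 500 to 1000 bp, 36 bp at 1000 to 2000 bp, 33.5 bp at 2000 to 5000 bp and 31 bp beyond. At 595 sites (55.3%) the summits were within 50 bp, and at 117 sites (10.9%) over 200 bp apart. The rule limits these distances, so they carry no test.

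Seen from STAT3, the pair without AP-1 was a minority. Of 9817 STAT3 sites without an AP-1 summit within 300 bp, 1110 (11.3%, 10.7 to 11.9%) had an NFKB1 summit, against 63.4% of the 70448 STAT3 sites with AP-1. The 1110 sites had STAT3 in non-transformed cells in 26.4% of cases (23.9 to 29.1%), and the 8707 without NFKB1 in 13.7% (13.0 to 14.5%). Earlier STAT3 went with STAT3 height at the 1075 sites, and these groups were not matched for height. No share over all STAT3 sites stands beside them, and the part of NFKB1 in the difference was not tested. The count of 1110 differs from 1075 because distances are measured from the STAT3 summit.

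Along the genome, the sites were spread over all 23 chromosomes. Chromosome 1 had 119 of them (11.1%), with 10.5% of all NFKB1 sites. The share of NFKB1 sites was highest on chromosome 19 (37 of 1459, 2.54%, 1.85 to 3.48%) and chromosome 17 (1.93%), and it was 1.02% on chromosomes 4 and 22. Neighbouring members stood within 10000 bp of each other in 27 cases, and within 300 bp in 6.

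The strongest sites are given by their hg19 positions. The highest NFKB1 peak of the group, at chr12:126854155-126854887, had an NFKB1 fold enrichment of 41.9 in transformed and 8.05 in non-transformed cells. STAT3 there was 9.02 in transformed cells and was not listed within 300 bp earlier. FOS (10.9), JUN (5.12) and JUNB (5.64) were listed there in non-transformed cells, and after transformation the nearest AP-1 summit was 388 bp away. By summit the site went from AP-1 with NFKB1 to NFKB1 with STAT3, within a peak 733 bp long.

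Second by NFKB1 was chr1:11796571-11797446 with 37.1 for NFKB1 and 42.3 for STAT3 in transformed cells. NFKB1 was 19.3 earlier and FOS 4.92, and the nearest earlier STAT3 summit was 340 bp away, just beyond the limit of 300 bp. Its NFKB1 and STAT3 summits are 291 bp apart and AP-1 317 bp away, close to the limit on both sides. Among the 10 highest, 9 had NFKB1 earlier, 4 had STAT3 earlier and 9 lay within 500 bp of AP-1. Over all 1075 sites these shares were 13.5%, 27.1% and 33.3%. The 10 were picked by NFKB1 height, and earlier NFKB1 went with that height in all classes of NFKB1 sites.

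The exception in distance was chr18:60177999-60178287, 4159 bp from AP-1. NFKB1 was 32.3 in transformed and 24.3 in non-transformed cells, STAT3 6.21 in transformed cells only, and JUN was 4.93 earlier. NFKB1 led here in both states.

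By STAT3, the highest site was chr14:34965650-34966072, with STAT3 at 78.9 and NFKB1 at 13.2 in transformed cells. No protein had a summit within 300 bp there in non-transformed cells, but each was listed somewhat beyond that limit. The nearest summits then were FOS at 350 bp, STAT3 at 373 bp, JUNB at 381 bp, JUN at 442 bp and NFKB1 at 446 bp. In transformed cells AP-1 was 343 bp away. The other 9 sites of the 10 highest by STAT3 had STAT3 within 300 bp earlier. These were picked by STAT3 height, and earlier STAT3 was also most frequent in the top class of STAT3 pileup, at 56.1%. At chr18:49140856-49141015 STAT3 was 62.7 in transformed and 29.9 in non-transformed cells, beside JUN at 13.1 earlier and NFKB1 at 5.55 in transformed cells only. At chr17:80255677-80255867 STAT3 was 61.6 and 31.7 in the same order, and NFKB1 was 10.5 in transformed cells only. The nearest AP-1 summit was 303 to 395 bp away at all 10 sites, and 3 of them had NFKB1 earlier. At 3 of the 10 the STAT3 summit lay 225 to 271 bp from the NFKB1 summit, so the peaks were not centred on each other. The strongest STAT3 sites of the group thus had AP-1 just beyond the limit.

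Of the 29 sites that had the pair without AP-1 in both states, the highest was chr1:228121997-228123135, which is also among the 10 highest by NFKB1 and by STAT3. NFKB1 was 33.8 in transformed and 16.9 in non-transformed cells, and STAT3 was 50.1 and 34.7. AP-1 was 351 bp away after and 393 bp before transformation. Next came chr12:67828476-67828675, with NFKB1 at 16.1 and 13.6 and STAT3 at 19.4 and 9.78 in transformed and non-transformed cells. A site well apart from AP-1 was chr1:17435296-17435537, 9749 bp from it in transformed cells and 10310 bp from JUN, the nearest subunit, in non-transformed cells. NFKB1 there was 11.9 and 7.25 and STAT3 15.8 and 9.96. In the same set chr10:62271663-62271951 lay 5960 bp from AP-1, with an NFKB1 fold enrichment of 13.3 in each state and STAT3 at 14.0 and 4.67. Of the 10 highest of these sites, 5 lay within 500 bp of AP-1.

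**Figure D5:**
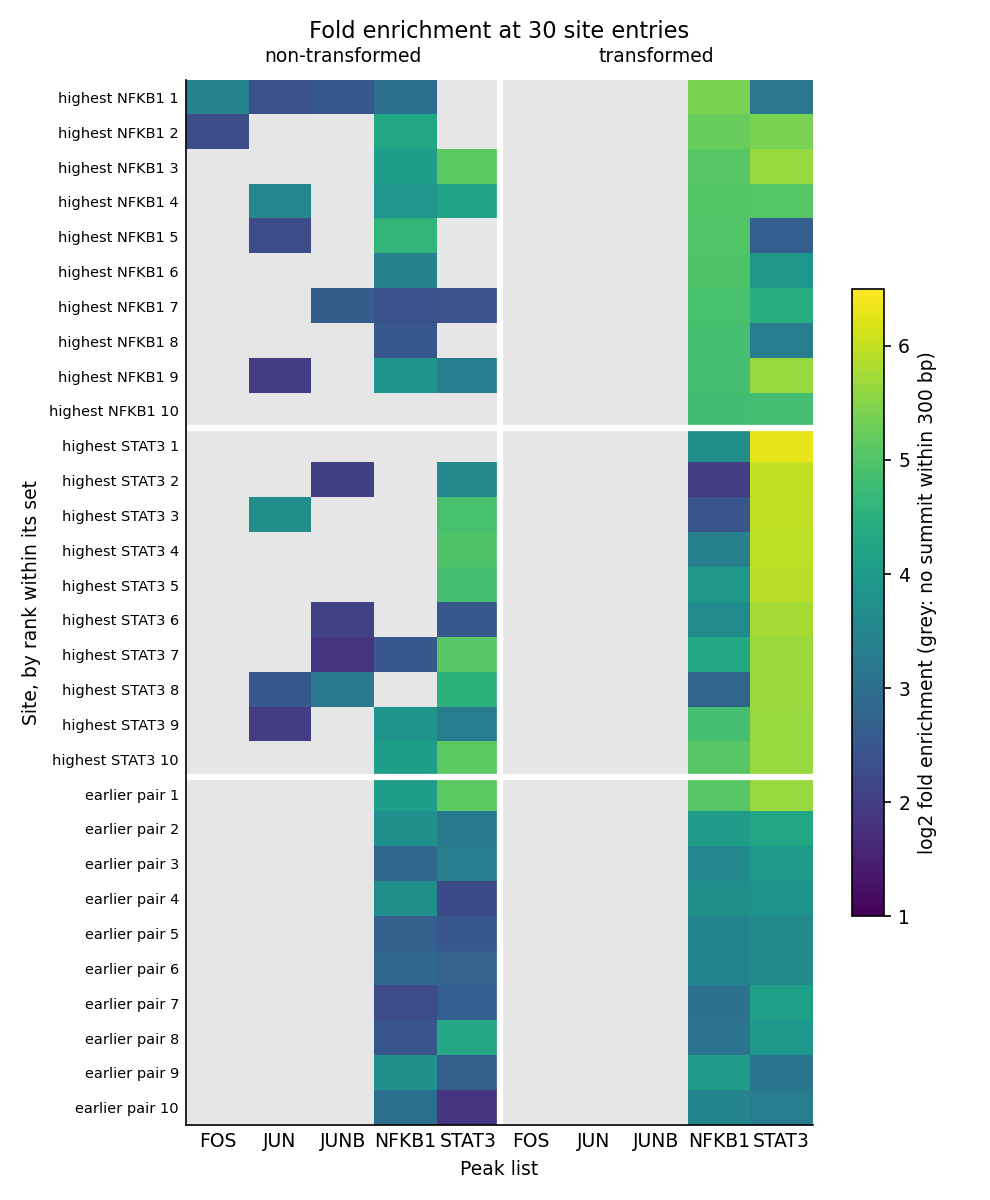
Log2 fold enrichment in the 10 peak lists at the 10 sites highest by NFKB1, the 10 highest by STAT3 and the 10 highest with the pair in both states, 1 row for each entry; grey means no summit within 300 bp. Sites in several sets appear again; earlier NFKB1 fills 9 rows of the first set and 3 of the second, earlier STAT3 fills 4 and 9, and the AP-1 columns of transformed cells are empty by the choice of sites.

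Because AP-1 stood near most of these, the highest sites over 1000 bp from AP-1 were also read, a choice made after their values were seen. After the chromosome 18 site above, NFKB1 was highest at chr11:14776796-14777011, with 28.1 for NFKB1 and 5.52 for STAT3, 9991 bp from AP-1 and with no protein within 300 bp earlier. At chr6:129436195-129436449 NFKB1 was 26.5 in transformed and 31.4 in non-transformed cells, and STAT3 was 5.73 and 5.97. At chr10:63917325-63917642 NFKB1 was 26.5 and 16.3, and STAT3 was 11.1 in transformed cells only.

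By STAT3 the highest distant site was chr17:77005823-77005942, with 36.6 in transformed and 34.2 in non-transformed cells, 9891 bp from AP-1. NFKB1 was 5.59 in transformed cells only, and JUN was 5.12 earlier. At chr2:27958405-27958680 STAT3 was 34.4 and 31.2 and NFKB1 was 7.16 in transformed cells only. At chr2:179315992-179316111, 29075 bp from AP-1, STAT3 was 27.3 and 21.9, NFKB1 was 4.01 in transformed cells only, and JUN was 4.80 earlier. These 3 sites carried a high STAT3 peak in both states and an NFKB1 peak in transformed cells only. That NFKB1 peak ran from 4.01 to 7.16, where the median over the 1075 sites was 5.60. Without replicates the change between states has no error.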

How the data were processed

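ChIP-seq of 5 proteins in 2 states gave 10 peak lists, 1 library for each protein and state, grouped by the sample titles. Bowtie, MACS2 and hg19 are named in the submitters' processing notes. Per the file headers, the authors called peaks in each library on its own with MACS version 2.0.10.20131216, from 36 bp reads with at most 1 read per position, no control library, a local background over 1000000 bp and a q-value cutoff of 0.05. The deposited pileup is a signal of extended reads over the summit, not scaled for depth. The deposited significance is −log10 of the p-value or q-value. Fold enrichment, as deposited, is a ratio of pileup to background with 1 added to each: at 44.3% of NFKB1 peaks of transformed cells it equalled that ratio for the genome-wide background (within 0.1%), and elsewhere it was lower.

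Classes of NFKB1 sites were formed from summit distances (300 bp). Shares carry Wilson 95% intervals and differences Newcombe 95% intervals, which cover counting of sites only; medians of ratios carry order-statistic 95% intervals. No p-value was computed. The sites and tests were chosen with earlier results of these data known. Named sites are the 10 highest by NFKB1 fold enrichment, the 10 highest by STAT3, and the 10 with both proteins but no AP-1 in non-transformed cells having the smallest rank sum; examples of each are printed. The distance code was tested on simulated data. 48 NFKB1 peaks on chromosome Y or the mitochondrial genome were left out. Peaks run past the ends of 14 of 23 chromosomes of the GRCh38 reference at hand, so no gene, motif or sequence was read from it. Python 3.11.15, numpy 2.4.6, pandas 2.3.3 and scipy 1.17.1 were used. Alternatives are given in the closing section.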

Additional observations from a re-analysis of the deposited data

How the results depend on the processing

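The number of sites stayed within 1.5 times of 1075 in 5 alternatives, from 800 (500 bp limits) to 1508 (150 bp limits), but was 2429 with FOS left out of AP-1, 2011 with JUN left out, and 158 when NFKB1 and STAT3 peaks had −log10 q at or above the medians of their lists. Of 65 alternative values in all, 26 stayed close, 37 moved and 2 turned direction.

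With 150 bp for the earlier summits FOS was at 10.2%, JUN at 13.0%, JUNB at 5.58%, any AP-1 at 22.0% and STAT3 at 21.0%. With 500 bp they were 31.8%, 34.9%, 21.2%, 44.7% and 36.7%, and 18.0% for NFKB1. Counting overlapping intervals gave 18.9% for FOS and 20.4% for JUN. The 158 sites with high peaks had JUN at 20.3%, JUNB at 13.9%, NFKB1 at 28.5% and STAT3 at 43.0%. The 871 sites without an overlapping AP-1 interval gave 9.30% for FOS, 13.4% for JUN, 2.76% for JUNB, 21.0% for any AP-1 and 23.7% for STAT3. The 516 sites over 1000 bp from AP-1, an alternative chosen after seeing the data, gave 8.53%, 14.0%, 1.94%, 20.2% and 21.7%, and a median NFKB1 to STAT3 distance of 34 bp. JUN stayed above FOS in each of these settings.

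Weighting to the NFKB1 pileup turned the NFKB1 difference from sites with STAT3 and AP-1 from -7.28 to 0.574 points. The change of NFKB1 between states turned from 0.818 to 1.30 by fold enrichment, and that of STAT3 went from 1.44 to 1.35. The peak caller adds 1 to pileup and background before dividing, which weighs more in a shallower library. No paired analysis was possible because each protein and state has 1 library, which also leaves no replicate to leave out. Motif, transcription start and gene list alternatives were not run, since no hg19 sequence or annotation was used here.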
